A study of Mus musculus with 2 samples.

Results

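The cytosolic ribosomal protein genes encode the protein part of the ribosome in the cytosol. Of the 25943 gene rows in the expression table, 82 were chosen by name alone: Rpl or Rps followed by digits with at most a final a, l or x, and Rpsa, Rplp0, Rplp1 and Rplp2. Rows marked as pseudogenes by -ps were left out. By these names 50 members belong to the large subunit and 32 to the small subunit. GENCODE M21 lists 79 of them as protein coding and 3 (Rps4l, Rpl32l and Rpl6l) as pseudogenes. The study profiled single cells of whole bone marrow of wild-type (WT) male mice, 8 to 10 weeks old. Controls gave 1 library. The other library came from mice with MCAO, a stroke model that blocks the middle cerebral artery. The labels give neither the time after occlusion, nor a sham operation, nor the number of mice behind a library. Marrow was flushed from tibias and femurs, put through red cell lysis, and captured on the BD Rhapsody microwell system, which tags the 3′ end of each mRNA with a unique molecular identifier (UMI). With 1 library per condition, no difference between MCAO and control has a replicate check, no p-value is given, and every interval is an exact 95% interval for counting error alone.

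A ribosome joins a small subunit, which reads the mRNA, to a large subunit, which forms the peptide bond. Each carries ribosomal RNA and a fixed set of proteins, and each protein is present once per ribosome, except for the acidic stalk proteins Rplp1 and Rplp2. Dividing precursors of the marrow make ribosomes at a high rate, whereas neutrophils stop dividing and lose much of their ribosome content as they mature. Inherited loss of a single copy of a ribosomal protein gene such as Rps19 or Rps24 causes Diamond-Blackfan anaemia, in which red cell precursors fail. The mRNAs of this family begin with a run of pyrimidines, the 5′ terminal oligopyrimidine tract, through which their translation responds to the kinase mTOR and the RNA-binding protein Larp1.

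Start-site sequences are shown because this tract is known for the family and was not used in the choice by name. RefSeq promoters on GRCm38.p6 were matched for 60 of the 82 members. Each window below holds 15 bases before the annotated start and the first 15 bases of the first exon, 5′ to 3′ on the strand of the gene, and capitals mark a run of at least 8 pyrimidines (C or T) near the start.
Rpl35: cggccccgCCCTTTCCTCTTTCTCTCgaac
Rpl15: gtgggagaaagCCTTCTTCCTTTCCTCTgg
Rps18: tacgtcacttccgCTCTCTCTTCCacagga
Rpl14: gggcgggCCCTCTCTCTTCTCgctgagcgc
Rps26: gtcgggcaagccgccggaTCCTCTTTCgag
Rps9: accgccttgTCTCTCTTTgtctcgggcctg
Rps24: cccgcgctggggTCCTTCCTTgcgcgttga
Rpl41: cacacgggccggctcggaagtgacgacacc
Rps3: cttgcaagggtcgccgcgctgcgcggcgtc
Rps2: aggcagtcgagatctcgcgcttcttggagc
Rpsa: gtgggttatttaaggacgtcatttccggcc
The first 4 are members in which the annotated start is itself a C followed by at least 4 pyrimidines. Rps26, Rps9 and Rps24 are among the members with most UMIs and hold a run near the start without that C at the start itself, and the last 4 hold no run of that length there. On GRCm38.p6 the windows of Rpl35, Rpl15, Rps18 and Rpl14 lie at chr2:39005117-39005146 (minus), chr14:18270972-18271001 (minus), chr17:33955651-33955680 (minus) and chr9:120571502-120571531 (plus). The windows of Rps26, Rps9 and Rps24 lie at chr10:128626492-128626521 (minus), chr7:3704026-3704055 (plus) and chr14:24490663-24490692 (plus). Those of Rpl41, Rps3, Rps2 and Rpsa lie at chr10:128549154-128549183 (minus), chr7:99483695-99483724 (minus), chr17:24720048-24720077 (plus) and chr9:120127751-120127780 (plus).

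A pyrimidine run of at least 8 bases overlapping the stretch from 10 bases before to 12 bases after an annotated start was found for 29 of the 60 matched members (48.3%) and for 16.6% of 17491 protein-coding genes with a promoter. A C followed by 4 pyrimidines exactly at the start was found for 14 members (23.3%) and 2.67% of protein-coding genes. Among 68 mitochondrial ribosomal protein genes, whose products serve the ribosome of the mitochondrion, these shares were 13.2% and 0%. Over the whole 300-base window (250 bases before and 50 after the start, both strands), CCGGAAG was present in 41.7% of members against 12.9% of protein-coding genes, and CTTTCC in 51.7% against 28.8%. Among the mitochondrial ribosomal protein genes CCGGAAG was present in 36.8% and CTTTCC in 30.9%. Among 31 translation initiation factor genes with a promoter these shares were 32.3% and 25.8%. CCGGAAG was thus not particular to the members. For GGGCGG the shares of members and of protein-coding genes were 58.3% and 49.2%, for CACGTG 10.0% and 8.91%, and for TATAAA 11.7% and 14.8%. These are matches of letters in a window. Starts were taken from annotation and were not measured here. A window without a run therefore does not show that the mRNA lacks the tract. Where a gene had several annotated starts, a match at any of them counted.

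The control library held 5212 cells and 25886279 UMIs (median 3344 per cell) and the MCAO library 5398 cells and 35401492 UMIs (median 4952). The table names cells by serial number, so barcodes shared by the libraries were not counted. Cells were clustered without the 82 genes, and clusters were named from marker genes, with the suffix -like to show that the names were rebuilt here. This gave 24 clusters in 14 named classes and 1 unnamed cluster of 57 cells that mixed plasma cell and eosinophil genes. Each class held all or nearly all of its own markers above 0. This does not check the names, since the clusters were named from these markers. The erythroid and promyelocyte lists also had no marker at 0 in neutrophil-like cells, as given below. Haemoglobin mRNA, which belongs to red cells, was present at 7.40 to 11.2 UMIs per 10000 in the clusters that are not erythroid-like of the control library, except macrophage-like (25.8) and unnamed (11.9), and at 14.4 to 20.1 in those of the MCAO library, except unnamed (25.8).

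All 82 members were detected, with 2182234 UMIs in all, 3.45% of all UMIs in control and 3.64% in MCAO. Rps26 led with 150490 UMIs, and Rps9 (127490), Rps3 (106287), Rpl41 (106040) and Rps24 (98441) were also among the members with most UMIs. Rps26 and Rps3 are small-subunit proteins that line the path of the mRNA, and Rpl41 is the shortest protein of the ribosome. UMIs per gene were uneven: 41 members had at least 10000 UMIs, 70 had at least 1000, and 3 (Rpl39l, Rpl24 and Rpl23a) had under 50. Small-subunit genes held 57.6% of member UMIs, from 54.3% in erythroid-like to 59.3% in immature and pre-neutrophil-like cells of the control library.

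The summed level of the family differed by 8.34-fold between the highest and the lowest class in each library. T cell-like cells were highest, with 727 member UMIs per 10000 UMIs in the control library (95% interval 718 to 735) and 812 in the MCAO library (803 to 822). Stem or early progenitor-like cells followed at 683 and 713, erythroid-like at 660.3 and 655, and NK cell-like at 583 and 639. Promyelocyte-like (492 and 513), B cell-like (485 and 534), pro-B or pre-B-like (459.9 and 551), basophil or mast-like (448 and 411), plasmacytoid dendritic-like (415 and 482) and monocyte-like cells (379.6 and 413) formed a middle range. Macrophage-like (162 and 176), pre-neutrophil-like (162 and 175), immature neutrophil-like (91.1 and 113) and mature neutrophil-like cells (87.1 and 97.4) were lowest. Macrophage-like and pre-neutrophil-like cells had overlapping counting intervals in both libraries, so their order is not resolved.

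**Figure D1:**
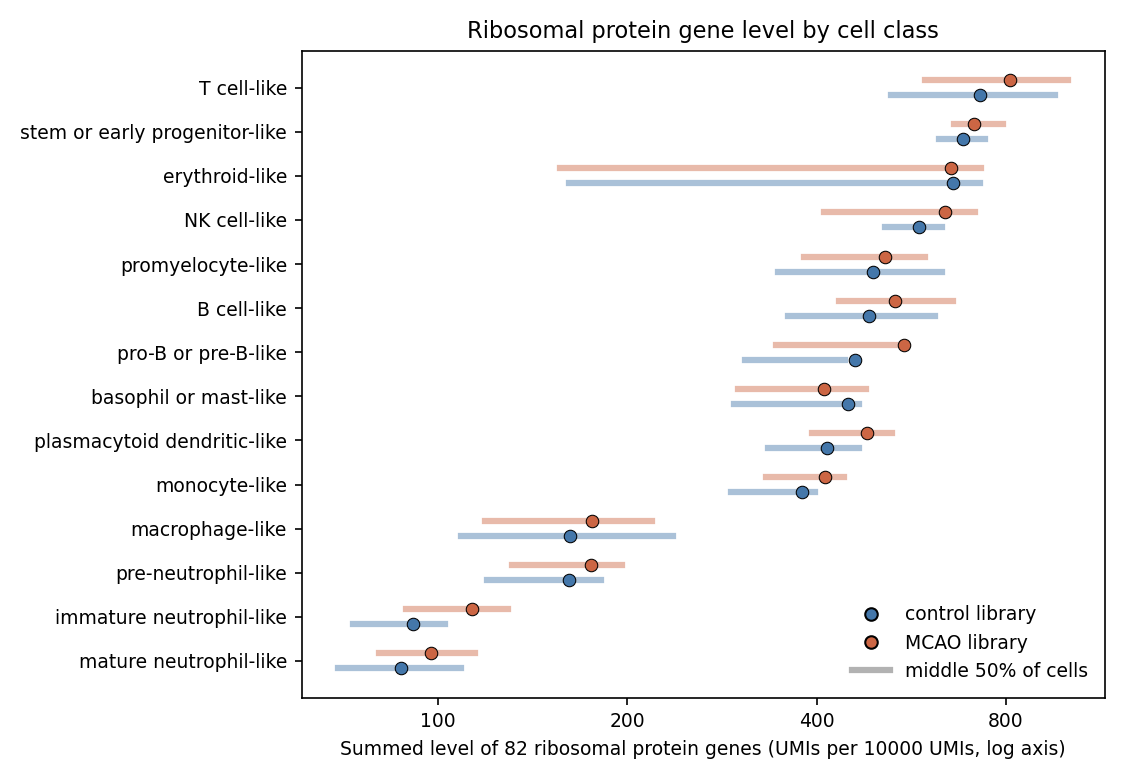
Summed level of the 82 ribosomal protein genes (UMIs per 10000 UMIs, log axis) in 14 cell classes. Points are the level over all cells of a class in the control and the MCAO library and bars span the middle 50% of cells. T cell-like cells lie near 727 and 812, and mature neutrophil-like cells near 87.1 and 97.4.

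Single cells showed the same contrast between progenitor-like and mature neutrophil-like cells, but the order of classes by median cell differed in part. The median erythroid-like cell had 503 in control and 445 in MCAO, below the median NK cell-like cell (586 and 580). The median mature neutrophil-like cell of the control library had 86.8 member UMIs per 10000, with 50% of cells between 69.3 and 109, and the median stem or early progenitor-like cell had 672 (626 to 742). None of the 1311 control or 1366 MCAO mature neutrophil-like cells lay above the median progenitor-like cell of its library; the highest stood at 309.6 and 396. Erythroid-like cells were the most spread class, with 50% of control cells between 161 and 727. The depth of the classes differed, at a median of 15092.5 UMIs per cell in progenitor-like and 2359 in mature neutrophil-like cells of the control library.

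Along the neutrophil classes the level was lower at each of the later stages. It was 3.05-fold lower in pre-neutrophil-like than in promyelocyte-like cells of the control library (interval 3.01 to 3.09) and 2.93-fold lower in MCAO. From pre-neutrophil-like to immature neutrophil-like cells the fold was 1.77 (1.75 to 1.799) and 1.55 (1.53 to 1.57), and from immature to mature it was 1.05 (1.03 to 1.06) and 1.16 (1.15 to 1.17). All 44 members with at least 100 UMIs in each class and library were lower at the first of these steps and at the next in both libraries, and 33 of 43 were lower at the last. No share of all genes stands beside these counts, so they do not show a trait particular to the members. Cell division genes had a summed level of 65.9 per 10000 in promyelocyte-like, 88.6 in pre-neutrophil-like, 6.16 in immature and 5.27 in mature neutrophil-like cells of the control library.

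Erythroid-like cells fell into 3 clusters with different levels of the family. The cluster led by Car1, Atp1b2 and Sphk1 had 752 member UMIs per 10000 in control and 806 in MCAO, with 13.2 and 21.9 of haemoglobin mRNA. The cluster led by Hemgn and Slc4a1 had 606 and 595 beside 555 and 692 of haemoglobin. The third, led by Tmcc2, Slfn14 and Xpo7, had 85.3 and 99.2 beside 3783 and 3725 of haemoglobin, in 22 control and 52 MCAO cells. The levels are shares of a cell's UMIs, so the haemoglobin share and the member share are not independent. Within B-lineage cells the pro-B or pre-B-like cluster led by Nrgn (cell division genes at 147 and 138) stood at 530.1 and 604. The cluster led by Vpreb1 (cell division genes at 74.4 and 88.2) stood at 503 and 577, and the Rag1 and Il2ra cluster at 365 and 393. Of the B cell-like clusters, that led by Ighd and Fcer2a stood at 560 and 569, and that led by Ms4a1 at 398 and 457.

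Member by member, stem or early progenitor-like cells exceeded mature neutrophil-like cells for all 43 members with at least 100 UMIs in both classes and libraries, with a median fold of 8.93 in control and 8.57 in MCAO. Here too no share of all genes is given beside the count. The folds were far apart. Rps9, a small-subunit protein that acts in decoding accuracy, had 30.1 and 31.9 UMIs per 10000 in progenitor-like cells and 13.9 and 15.7 in mature neutrophil-like cells, a fold of 2.17 (2.09 to 2.26) in control and 2.03 (1.97 to 2.10) in MCAO. Rpl37, a zinc-finger protein of the large subunit, had folds of 3.23 (3.02 to 3.45) and 3.36 (3.17 to 3.56). At the other end Rpsa, the small-subunit protein also known as the laminin receptor precursor, had 7.42 and 7.76 against 0.352 and 0.481, folds of 21.1 (17.5 to 25.7) and 16.1 (14.0 to 18.6). Rps2, a small-subunit protein near the mRNA entry, had folds of 16.4 (14.2 to 19.0) and 15.98 (14.1 to 18.2), and Rps4x, encoded on the X chromosome, 17.4 (15.9 to 19.1) and 12.5 (11.6 to 13.3).

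Dividing each member by the family's sum takes the shared level out. Of the 14 classes, 9 had 100 or more cells in both libraries. Over these 9 classes, 42 members had at least 100 UMIs in every class and library. The log2 range of their share from lowest to highest class had a median of 0.63, and it was narrowest for Rpl21 (0.18) and Rpl7 (0.19). Rps9 was the widest: it held 159 of every 1000 member UMIs in mature neutrophil-like and 116 in immature neutrophil-like cells of the control library, against 37.4 in erythroid-like and 44.1 in progenitor-like cells. The MCAO library gave 161, 123, 39.9 and 44.8.

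The next 5 by width were Rps2, Rpl37, Rpsa, Rps18 and Rplp1. Rps2 held 18.05 per 1000 in erythroid-like and 6.44 in immature neutrophil-like cells of the control library, and 17.2 and 5.78 in MCAO. Rpl37 held 48.0 in mature neutrophil-like against 17.7 in the pro-B or pre-B class, and 41.5 against 17.8 in MCAO. Within the erythroid-like class, the haemoglobin-rich cluster led by Tmcc2 did not share its Rps2 and Rps9 values: it held 5.13 and 8.76 of Rps2 (3 and 18 UMIs) and 54.7 and 54.0 of Rps9 (32 and 111 UMIs), against 17.9 and 17.01 of Rps2 and 37.6 and 40.8 of Rps9 in the cluster led by Car1. Rpsa was lowest in mature neutrophil-like cells of both libraries (4.04 and 4.94), and its highest class was erythroid-like in control (11.7) and pre-neutrophil-like in MCAO (11.2). Rps18, a protein of the small-subunit head, held 19.2 and 21.3 in erythroid-like against 9.29 and 10.4 in mature neutrophil-like cells. Rplp1, of the stalk that recruits elongation factors, held 49.1 and 48.3 in erythroid-like against 24.6 and 23.6 in immature neutrophil-like cells. Of the 42 members, 31 had the same highest class and 31 the same lowest class in both libraries. In cells of 2000 to 4000 UMIs only, the log2 range of Rps2 was 0.57 in control and 1.32 in MCAO, against 1.49 and 1.57 over all cells, and that of Rps18 was 0.40 and 0.66 against 1.05 and 1.03.

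**Figure D2:**
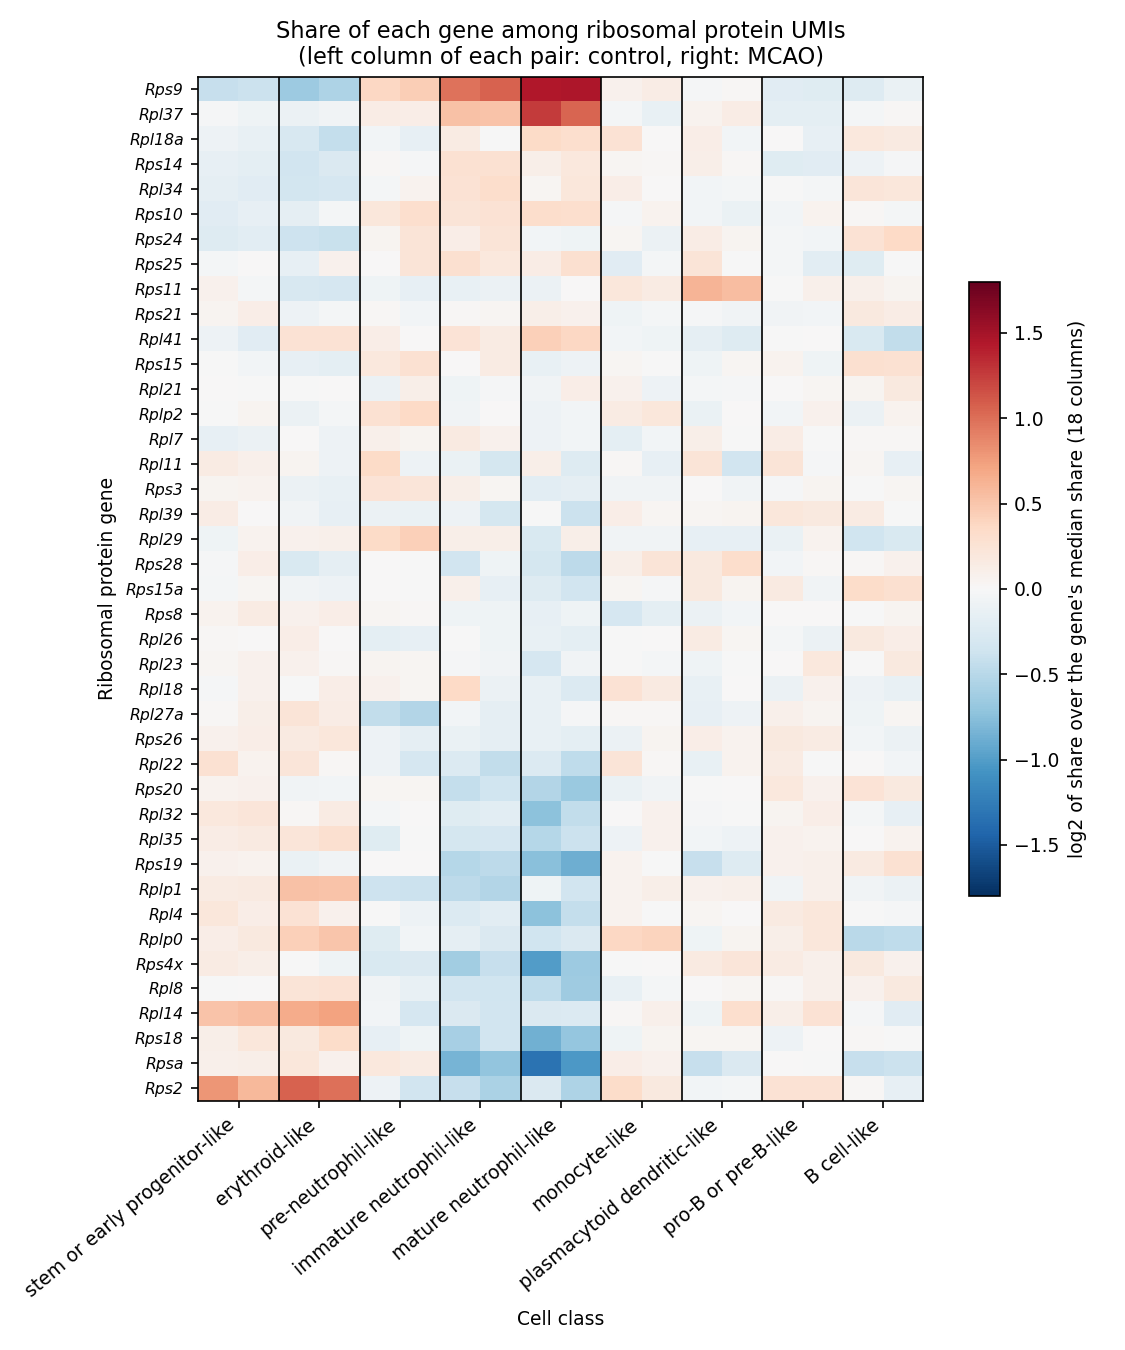
Share of each ribosomal protein gene with at least 100 UMIs in every class and library (1 gene is not shown) among member UMIs in 9 cell classes and both libraries, as log2 over the gene's median share of the 18 columns. Red is above and blue below that median; Rps9 and Rpl37 are red in mature neutrophil-like columns and Rps2 is red in erythroid-like columns, in control and MCAO alike.

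Ribosomal protein genes have many processed copies in the genome, and a 3′ tag cannot always tell a gene from its copy. The table held 534 copy rows: rows named as a -ps or rt copy of a member, and annotated pseudogenes that match a member's transcript at 95% identity or more over at least 100 bases and 50% of their own length. They had 1188894 UMIs, 54.5 per 100 member UMIs. Of the members, 73 had such a row, and 34 had fewer UMIs than their copy rows. Rps16 had 2073 UMIs and its copy Rps16-ps2, identical over 441 bases, had 86462. Rps29 had 339 UMIs against 44690 on Gm14303, and Rpl38 had 2317 against 43082 on Rpl38-ps2. The level of such members is uncertain, because reads of the gene and of the copy may have been divided between the rows. An order of members by UMIs is therefore an order of rows in the table, not of mRNA levels. The copies were spread over classes like the members: from 50.5 copy UMIs per 100 member UMIs in macrophage-like to 56.9 in basophil or mast-like cells of the control library.

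**Figure D3:**
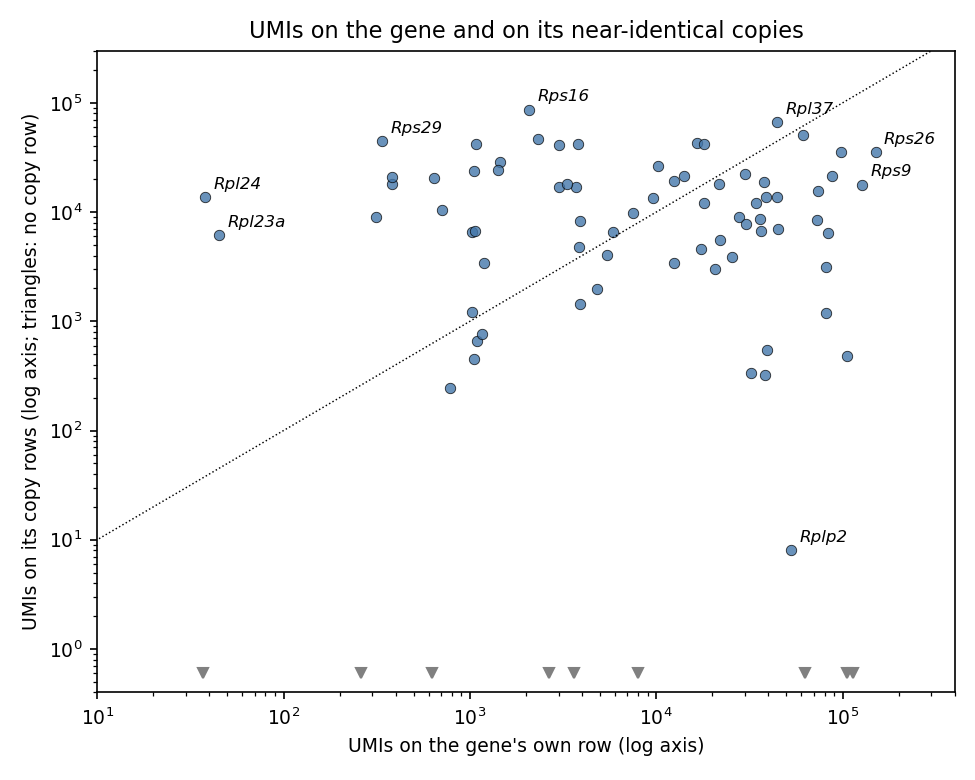
UMIs on each ribosomal protein gene's own row against UMIs on its copy rows, both on log axes; the dotted line marks equal counts and triangles are genes with no copy row. The 34 genes above the line include Rps16, Rps29 and Rpl37, and Rps26 and Rps9 lie below it.

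The class pattern of Rps9 was also present on its copy row. Gm5905, its only copy row, held 22.8 UMIs per 1000 member UMIs in mature neutrophil-like and 5.45 in erythroid-like cells of the control library, and 21.7 and 5.29 in MCAO. Rps9 itself lies at chr7:3703993-3706897 on the plus strand of GRCm38 and overlaps no other gene in GENCODE M21. For Rpl37, the copy Rpl37rt held 61.5 in mature neutrophil-like and 28.0 in erythroid-like cells of the control library, and 62.7 and 29.2 in MCAO. For Rpsa, the copy Rpsa-ps5 held 0.269 and 1.31, and 0.461 and 1.27. In each of these pairs the copy and the member were higher in the same class of the 2. Reads may be divided between a gene and its copy, so the copy is not an independent reading. Copies of Rps2, Rps18 and Rplp1 are not given here.

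Members whose names end in l include paralogues and pseudogene-annotated rows. Rps27l, a p53-responsive paralogue of Rps27, had 3380 UMIs in control and 4634 in MCAO, more than Rps27 itself (189 and 194), whose copy Rps27rt held 21104. Rps27l had no copy row. Among members with at least 1000 UMIs it had the lowest correlation with the family's summed level (Pearson r 0.84 over 18 points, 9 classes in each of 2 libraries). Rpl3l, a paralogue of Rpl3 known from heart and skeletal muscle, had 103 UMIs in control and 158 in MCAO, of which 38 and 73 lay in mature neutrophil-like cells. These counts correspond to 0.111 and 0.156 per 10000. The pseudogene-annotated rows Rps4l (276 and 348 UMIs), Rpl32l (1032 and 1635) and Rpl6l (1402 and 2211) were present in 13 or all 14 named classes. Rpl32l and Rpl6l had r of 0.985 and 0.986, beside a median of 0.987 for members with at least 1000 UMIs.

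Rpl39l, a paralogue of Rpl39 known from testis, had 2 UMIs in a single cell of the control library and 35 UMIs in 15 cells and 9 classes of the MCAO library, a ratio of 12.8 (interval 3.29 to 110). The interval treats UMIs as independent, and a single cell held 8 of the 35. Rpl24 differed the other way, with 27 UMIs in 25 cells of the control and 11 in 10 cells of the MCAO library, a ratio of 0.298 (0.133 to 0.620). Its copy rows held 13637 UMIs. Rpl23a had 17 and 28 UMIs, a ratio of 1.20 (0.637 to 2.35). These were chosen for their low totals, and the library and the condition cannot be told apart.

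Against control, the summed level was higher in MCAO in 12 of 14 named classes and in 20 of 24 clusters. Among the 9 larger classes, immature neutrophil-like cells differed most, from 91.1 (90.3 to 92.0) to 113 (112 to 114), a log2 ratio of 0.31. It was 0.26 in pro-B or pre-B-like, 0.21 in plasmacytoid dendritic-like, 0.16 in mature neutrophil-like, 0.14 in B cell-like, 0.12 in monocyte-like, 0.12 in pre-neutrophil-like and 0.06 in progenitor-like cells. Erythroid-like cells had -0.01, and basophil or mast-like cells, with fewer cells, -0.12. Within the erythroid-like clusters the log2 ratios were 0.10, -0.03 and 0.22 in the order given above. The pro-B or pre-B class was made up differently in the libraries: the Rag1 and Il2ra cluster held 504 of 717 control and 114 of 204 MCAO cells. Within that cluster the log2 ratio was 0.11, and in the other 2 it was 0.19 and 0.20. At a finer clustering (resolution 2) the plasmacytoid dendritic class split into a cluster led by Siglech (116 control and 119 MCAO cells) and a conventional dendritic-like cluster led by Cd209a (33 and 53), and its log2 ratio was 0.14. At that resolution immature neutrophil-like cells fell into clusters led by Mmp8 (557 control and 425 MCAO cells) and by Zmpste24 (309 and 561). The part of this make-up in the ratio was not tested. In cells of 2000 to 4000 UMIs the log2 ratio was 0.11 in the plasmacytoid dendritic class and 0.11 in the pro-B or pre-B class. The mature neutrophil-like clusters led by Il1b, by Clec4d and by Stfa2 had ratios of 0.12, 0.12 and 0.19, and the Stfa2 cluster held 66 control and 546 MCAO cells. B cell-like clusters led by Ighd (381 control and 392 MCAO cells) and by Ms4a1 (291 and 162) had log2 ratios of 0.02 and 0.20. Monocyte-like clusters led by Vcan, by Itga1 and by Ace had 0.19, 0.07 and -0.03.

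Counted gene by gene, a member was called higher or lower when its log2 ratio was more than 0.32 from 0, among genes with at least 50 UMIs in the class over both libraries. Members under that minimum were not counted. In immature neutrophil-like cells 27 of 65 members were higher (10.6% of all 8004 genes were) and 3 were lower (11.5% of all genes). In mature neutrophil-like cells 14 of 62 were higher (14.2% of genes) and 3 lower (17.8%). The counts were 19 of 72 higher (19.0%) and 1 lower (21.1%) in the pro-B or pre-B class, and 17 of 64 higher (19.0%) and 2 lower (19.8%) in plasmacytoid dendritic-like cells. The other classes had few members past this threshold: 5 of 71 higher (13.5%) and 8 lower (16.4%) in B cell-like, 3 of 77 (11.5%) and 3 (12.3%) in monocyte-like, and 4 of 64 (11.1%) and 3 (11.0%) in pre-neutrophil-like cells. In progenitor-like cells 4 of 75 were higher (12.3%) and 2 lower (13.3%), and in erythroid-like cells 1 of 76 (8.97%) and 6 (15.9%).

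The median log2 ratio of counted members was 0.30 in immature and 0.17 in mature neutrophil-like cells, against -0.01 and -0.02 for all counted genes, and -0.03 in erythroid-like cells against -0.06. Low counts scatter ratios, and among genes with at least 1000 UMIs 14 of 30 members were higher in immature neutrophil-like cells (4.17% of genes) and 3 of 20 in mature ones (9.09%), and 0 were lower (4.74% and 15.2% of genes). At that minimum 6 of 30 were higher in plasmacytoid dendritic-like (11.9%), 12 of 38 in the pro-B or pre-B class (12.9%) and 2 of 32 in pre-neutrophil-like cells (1.91%), and 0 were lower (9.52%, 19.5% and 1.91%). In B cell-like (36 members), monocyte-like (45) and progenitor-like cells (44) 0 were higher, against 4.76%, 4.58% and 3.13% of genes, and 0 lower, against 5.19%, 6.67% and 2.32%. In erythroid-like cells 0 of 47 were higher (5.32% of genes) and 1 was lower (4.06%). Of 58 members counted in all 9 classes, 19 had a ratio above 1 in every class, as had 2.96% of the 5142 genes so counted, and 0 had a ratio below 1 in every class, as had 4.18% of those genes. The 19 include Rps26, Rps9, Rps18 and the stalk genes Rplp0 and Rplp2. The stalk gene Rplp1 was not among them, with 7 classes higher and 2 lower. Rpl19 was the member most often lower, in 8 of 9 classes, with a median log2 ratio of -0.07.

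**Figure D4:**
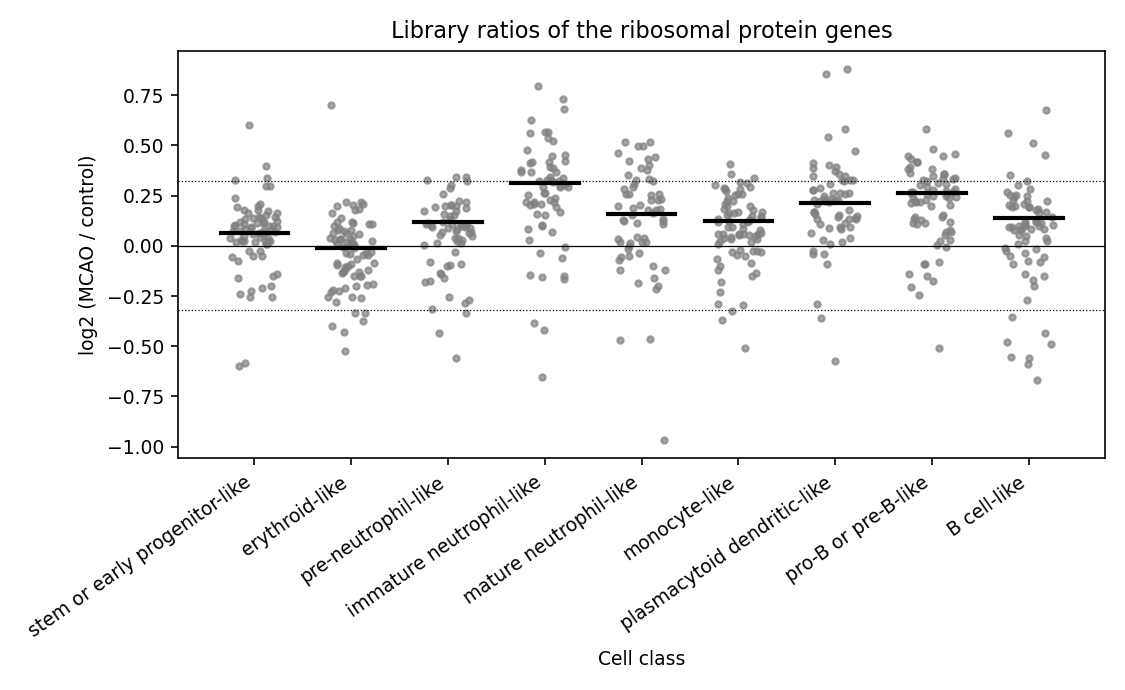
Log2 ratio of MCAO over control for each ribosomal protein gene with at least 50 UMIs in the class (grey points) in 9 cell classes; the black bar is the ratio of the family's sum and dotted lines mark a log2 ratio of 0.32 to either side of 0. The bar stands at 0.31 in immature neutrophil-like cells and at -0.01 in erythroid-like cells.

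Other readings also differed between the libraries in neutrophil-like cells. Haemoglobin mRNA stood at 8.46 and 15.6 UMIs per 10000 in immature and 9.22 and 16.6 in mature neutrophil-like cells of control and MCAO, and 12 of 13 erythroid markers were higher in MCAO in each class, with sums of 10.3 and 17.9, and 11.4 and 19.2, and none at 0. The promyelocyte list was higher for 7 of 7 markers, at 7.13 and 9.28 in immature and 5.08 and 7.18 in mature neutrophil-like cells, none at 0. The pre-neutrophil list in mature neutrophil-like cells stood at 92.5 and 152, with 8 of 9 higher. The B cell list was lower in MCAO, at 15.8 and 10.3 in mature neutrophil-like cells (2 of 15 higher). No share of all genes stands beside these marker counts. The pre-neutrophil and B cell lists are not given for immature neutrophil-like cells. The haemoglobin difference was not particular to neutrophil-like cells. It stood at 8.50 and 15.6 in progenitor-like and at 8.02 and 14.4 in basophil or mast-like cells of control and MCAO. In macrophage-like cells haemoglobin was lower in MCAO (25.8 and 20.1). The part of free RNA, cell stage and depth in the ratios was not tested. Within bands of under 2000, 2000 to 4000 and 4000 to 8000 UMIs per cell, the log2 ratio of mature neutrophil-like cells was 0.24, 0.22 and 0.18. Immature neutrophil-like cells had 0.25, 0.32 and 0.36 in the bands from 2000, 4000 and 8000 UMIs. Erythroid-like cells had -0.20, -0.22 and -0.23 in the bands below 8000 UMIs and 0.03 above, and monocyte-like cells under 2000 UMIs (29 and 28 cells) had -0.22.

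The members at either end of the ratios were mostly of low count. In mature neutrophil-like cells Rpl29, Rps27a and Rpl6l were highest. Rpl29 had 141 UMIs in control (0.413 per 10000) and 281 in MCAO (0.601), a ratio of 1.45 (1.18 to 1.79). Rps27a, made as a fusion with ubiquitin, had 25 and 53 UMIs and a ratio of 1.55 (0.944 to 2.60), an interval that includes 1. Rpl10, needed for a late step of large-subunit maturation, was lowest, with 35 and 20 UMIs and a ratio of 0.417 (0.228 to 0.742). Rpl13 (48 and 45 UMIs) and Rpl31 (78 and 75) had ratios of 0.684 (0.445 to 1.05) and 0.701 (0.504 to 0.976). In immature neutrophil-like cells Rpl32l (23 and 60 UMIs) had a ratio of 2.02 (1.23 to 3.42), Rps7 (30 and 72) 1.85 (1.20 to 2.94) and Rpl6 (44 and 98) 1.72 (1.19 to 2.52). Rps13 was lowest there, with 50 and 37 UMIs and a ratio of 0.572 (0.363 to 0.892), beside 41914 UMIs on its copy Rps13-ps2 over all cells. Rps9, with 4648 and 7890 UMIs in immature neutrophil-like cells, stood at 10.6 and 13.9 per 10000, a ratio of 1.31 (1.26 to 1.36).

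In erythroid-like cells Rps29 was highest, with 24 and 66 UMIs (1.75, 1.09 to 2.93), and Rps13 lowest, with 72 and 76 (0.674, 0.482 to 0.943). In plasmacytoid dendritic-like cells Rps4l (14 and 40 UMIs) had a ratio of 1.93 (1.03 to 3.85), Rpl15 (15 and 42) had 1.90 (1.03 to 3.68), and Rpl14, with 213 and 472 UMIs, had 1.5 (1.27 to 1.77). In the pro-B or pre-B class Rpl12 (66 and 43 UMIs) had 1.53 (1.02 to 2.28) and Rpl17 (109 and 32) had 0.690 (0.450 to 1.03). In monocyte-like cells Rpl31, with 183 and 451 UMIs, had 1.34 (1.12 to 1.60), the reverse of its direction in mature neutrophil-like cells. Rps27a, highest in B cell-like cells at 1.66 (1.02 to 2.73), was lowest in monocyte-like cells at 0.685 (0.535 to 0.878). In progenitor-like cells Rps23 had 88 and 72 UMIs and a ratio of 0.647 (0.467 to 0.894). These differences between classes were not tested. Each is among the 3 highest or 3 lowest of the 62 to 77 counted members of its class, so a wide interval is to be read with that choice in view.

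Other lists of translation genes were also lower in mature neutrophil-like than in progenitor-like cells. Elongation factors, which bring amino acids to the ribosome and move it along, had a summed level 9.16-fold higher in progenitor-like than in mature neutrophil-like cells of the control library and 7.90-fold in MCAO. For initiation factors the folds were 4.14 and 4.25, for nucleolar and ribosome assembly genes 12.7 and 14.0, and for mitochondrial ribosomal protein genes 4.69 and 4.69, against 7.83 and 7.32 for the members. The T cell-like class, highest for the members, was not the highest for these 4 lists: it had 85.6 and 92.3 for elongation factors against 98.3 and 97.5 in progenitor-like cells, and 62.4 and 63.4 for ribosome assembly against 102 and 100.4. For mitochondrial ribosomal protein genes it had 38.7 and 31.8, against 60.1 and 53.7 in erythroid-like cells, the highest class. The sum of regulators of ribosomal protein synthesis had folds of 1.28 and 1.28, but its genes differed. Eif4ebp2, a repressor of cap-dependent initiation, had 4.48 UMIs per 10000 in progenitor-like and 4.85 in mature neutrophil-like cells of the control library, and Max, the partner of Myc, had 1.98 and 6.13, whereas Larp1 and Mtor were lower in mature neutrophil-like cells.

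**Figure D5:**
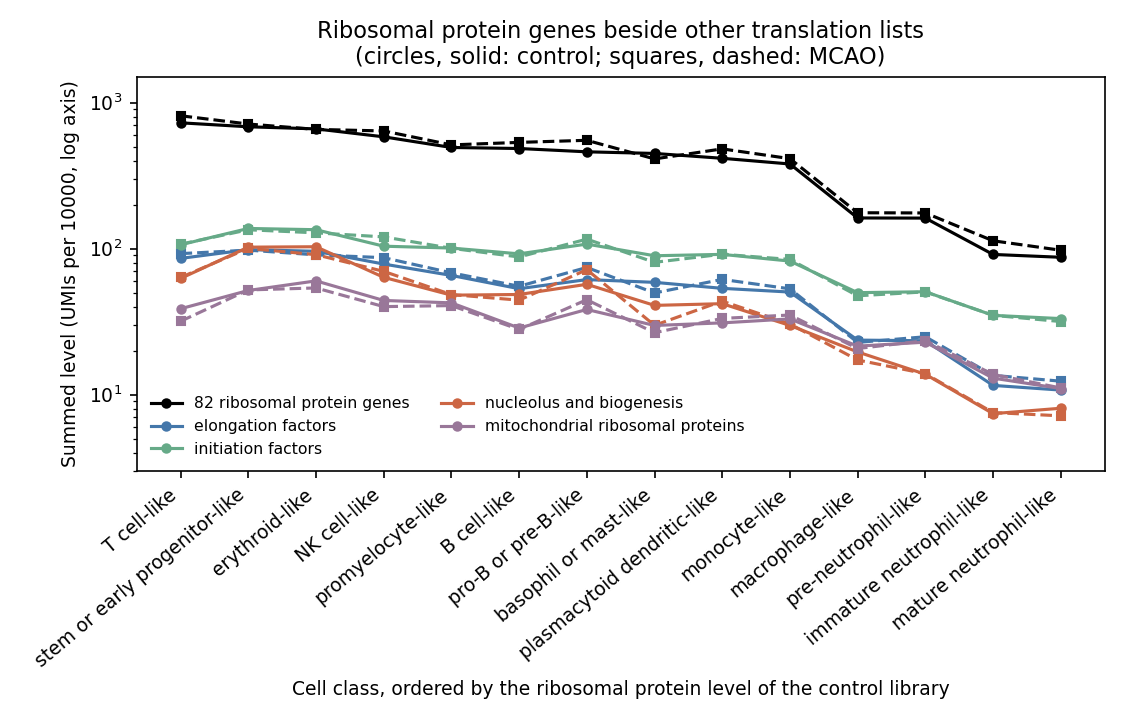
Summed level (UMIs per 10000, log axis) of the ribosomal protein genes and 4 other translation lists in 14 cell classes, ordered by the ribosomal protein level of the control library; circles are control and squares MCAO. All 5 lists are lowest or near lowest in immature and mature neutrophil-like cells, and the fold from progenitor-like to mature neutrophil-like cells is smallest for the initiation factors (4.14 and 4.25).

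The lists are read against the same shares of all genes as above. In immature neutrophil-like cells (10.6% of genes higher, 11.5% lower) 2 of 8 counted elongation factor genes were higher and 0 lower (median log2 ratio 0.15), 6 of 38 initiation factor genes were higher and 0 lower (0.10), and 7 of 31 ribosome assembly genes were higher and 2 lower (0.07), beside 0.30 for the members. In mature neutrophil-like cells (14.2% and 17.8%) 0 of 8 elongation factor genes were called (median 0.12), 9 of 35 initiation factor genes were higher and 1 lower (0.05), and 1 of 23 ribosome assembly genes was higher and 5 lower (-0.06). In the pro-B or pre-B class (19.0% and 21.1%) 20 of 39 assembly genes were higher and 1 lower (0.33). Of the ribosomal protein genes whose names fall outside the rule, 3 of 7 counted were higher in immature neutrophil-like cells and 0 lower. That list of 10 rows in the table also holds the member Rps4l.

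Eef1a1, which delivers aminoacyl-tRNA, had 24.0 UMIs per 10000 in progenitor-like and 1.38 in mature neutrophil-like cells of the control library, and 22.5 and 1.53 in MCAO. Npm1, a nucleolar chaperone of ribosome assembly, had 21.6 and 0.792 in control and 19.9 and 0.616 in MCAO. Tpt1, a translationally controlled growth protein, had 3.33 and 0.745, and 2.87 and 0.883. Larp1 had 3.31 and 0.243, and 3.68 and 0.210. Mtor had 0.481 and 0.117, and 0.486 and 0.109. Myc, a transcription factor that drives ribosome production, had 2.70 and 2.45 in progenitor-like cells of control and MCAO and 0.0569 and 0.0492 in immature neutrophil-like cells. Rps3a1 and Rack1, small-subunit proteins outside the name rule, had 1.72 and 2.36, and 1.32 and 1.72, in immature neutrophil-like cells of control and MCAO.

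Likeness to the family was measured as Pearson's r between log2 levels over the same 18 points, which share libraries and depth, among 7336 other genes with at least 1000 UMIs. The 8 closest were Gm9794, Gm2000, Rps10-ps1, Rps16-ps2, Rps26-ps1, Rps3a1, Gm5805 and Gm7600, with r from 0.998 to 0.996, and 63 of the closest 100 were copies of members by the criteria above or ribosomal protein genes outside the name rule. Genes annotated as protein coding, such as Gm2000 and Gm11361, could not count as copies. Among genes not matched as copies, Gm2000, Gm7600, Gm11361, Eef1a1, Ddx21, Gm5963, Wdr89 and Naca were closest (0.998 to 0.991). The most opposite were Padi4, Crispld2, Pilra and Fpr2 (-0.98, -0.98, -0.98 and -0.97). The median r of all ranked genes was 0.59, and 1240 of them exceeded 0.9, as did 68 of the 70 members with at least 1000 UMIs. Members are part of the summed level they were set against and the other genes are not, so these counts are not like for like.

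By position the members were dispersed, on 19 chromosomes with at most 14 on 1 of them (chromosome 7) and 4 on the X. Introns of ribosomal protein genes often host small nucleolar RNAs, which guide the chemical marking of ribosomal RNA, and 29 members held 56 annotated snoRNA genes. A gene on the opposite strand overlapped 22 members, for instance Vps52 at Rps18 and Snhg9 at Rps2. The sources used here do not say whether counting used strand, so reads of such pairs may not be told apart. The 36 members whose last 200 bases match another annotated gene at 95% identity or more had a median of 8927 UMIs and the 43 without such a match 16509.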

How the data were processed

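Per the submitters' processing notes, reads were handled with fastp, STAR, UMI-tools and Seurat 4.0.6 on mm10; the sources used here give neither settings nor strand use. The deposited table holds natural log values: the linear values of each cell sum to 10000, and dividing by a cell's smallest step gave whole UMIs for 100% of 19373615 values (tolerance 0.01 UMI). Column prefixes, transliterated Chinese words for control and stroke, were mapped to the 2 libraries. UMIs were summed per class and library. Clusters came from 2000 variable genes without members, 30 components, 20 neighbours and Leiden (leidenalg 0.10.2) at resolution 1. Cells marked as doublets (0.633% of control and 0.63% of MCAO cells) were kept. The threshold marked only 22.09% and 19.75% of simulated doublets, so unmarked doublets may remain. Levels are UMIs per 10000; log2 ratios used a pseudocount of 0.02. Intervals (scipy 1.17.1) cover counting error only. Copies were found with BLAST 2.17.0 on GENCODE M21 transcripts. Genes were named by rank rules: most UMIs, widest share range, extreme ratios, paralogues, lowest totals, closest and most opposite genes, and selected genes of the lists. Members and lists were chosen with earlier results of these data known. Fold calls and UMI recovery were tested on simulated data. Proteins were not analysed here. Alternatives are given in the closing section. Values of 1 member are not reported here.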

Additional observations from a re-analysis of the deposited data

How the results depend on the processing

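The log2 ratio of the summed level kept its sign in 8 of 9 classes under the alternatives run over whole classes (bands of depth are given above); it ranged from 0.14 to 0.22 in mature and from 0.25 to 0.32 in immature neutrophil-like cells. In mature neutrophil-like cells it was 0.196 with cells of at least 2000 UMIs, 0.217 with 2000 to 4000, 0.2065 with haemoglobin and the 20 most abundant other genes left out of the total, and 0.137 as a mean over cells. In immature ones it was 0.248 with 2000 to 4000 UMIs and 0.253 as a mean over cells. Erythroid-like cells turned from -0.01 to 0.022 without those abundant genes and to 0.0015 as a mean over cells. The fold of progenitor-like over mature neutrophil-like cells (7.83 and 7.32) was 8.20 and 7.48 with at least 2000 UMIs, 6.16 and 5.61 without the abundant genes, 7.36 and 7.13 as a mean over cells, and 8.15 and 7.61 with pseudogene rows and 4 further genes added. Members higher in immature neutrophil-like cells (27) numbered 10 with 2000 to 4000 UMIs, 55 at any fold and 4 at a fold of 1.5, and members lower (3) numbered 8 with no UMI minimum, 10 at any fold and 1 at 1.5. In mature ones, members higher (14) numbered 46 at any fold and 0 at 1.5, and members lower (3) numbered 1 with at least 2000 UMIs, 1 with 2000 to 4000, 8 with no minimum, 16 at any fold and 1 at 1.5. The causes of these shifts were not tested. Keeping the members among the variable genes changed no class, since 0 of them were variable enough. Some alternatives were chosen after seeing the data: the bands of depth, the minimum of 1000 UMIs, leaving all copies out of clustering, adding all copies to the sum, and leaving out clusters held at 80% or more by 1 library. No value reversed under the last 3 of these. In cells of 2000 to 4000 UMIs and as a mean over cells, shares of single members such as Rps2 and Rps18 spanned less in the control library. No paired analysis was possible because each condition is 1 library. Depth limits single members: a library's count of 0 allows up to 3 UMIs.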
